A study of Homo sapiens with 6 samples.

Results

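A set of 10 genes of the Notch pathway was followed in 12Z cells, an established epithelial line derived from endometriosis, after knockdown of the long non-coding RNA LINC01133. They were the receptors NOTCH1, NOTCH2 and NOTCH3, the ligands JAG1, JAG2 and DLL1, and the transcriptional repressors HES1, HES4, HEY1 and HEYL. They were chosen by symbol, with earlier results of these data known. Taken were the rows of the gene count tables whose Ensembl identifiers match those names, and all 10 were found among 60660 genes. RNA-sequencing compared 3 libraries of cells given a non-targeting control siRNA with 3 of cells given siRNA LINC01133a at 10 nM, collected 72 h after transfection. Both groups therefore carried an siRNA and transfection reagent, and the knockdown rests on 1 siRNA in 1 cell line. The strands of siRNA LINC01133a are shown because the seed of either strand, bases 2 to 8 in capitals, can pair with other messages.
guide strand: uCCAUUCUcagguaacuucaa
passenger strand: gAAGUUACcugagaauggatt

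Notch receptors are membrane proteins that are cut after binding a Jagged or Delta-like ligand on a neighbouring cell. The freed intracellular domain enters the nucleus, joins the DNA-binding protein RBPJ and the coactivator Mastermind, and switches on genes such as those of the HES and HEY families. These repressors then silence further genes, and HES1 also represses its own gene. In the endometrium the pathway is known for roles in decidualization, the change of the stroma that prepares it for pregnancy.

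The deposited values were whole read counts per gene, with 27742562 to 37551194 counts on genes per library, and 15155 genes passed the filter on low counts. Counts were scaled by edgeR's TMM method and are given as normalized counts, that is, counts at the mean effective library size. Knockdown and control libraries were compared in edgeR with the quasi-likelihood test, p-values were adjusted by the Benjamini-Hochberg method across the tested genes, and a gene was called differentially expressed (DE) at an adjusted p under 0.05 with a change beyond 1.5-fold. LINC01133 itself fell from 823 ± 12.8 to 133 ± 4.68 normalized counts (SD, n = 3 per group; log2 fold change -2.63, edgeR adjusted p = 3.5e-11). The markers fixed for the labelled cell type gave a mixed picture, since the keratin genes were abundant while EPCAM had a mean of 13.6 normalized counts in control cells, and the stromal markers VIM and COL1A1 were also abundant. The summed level of the 6 epithelial markers was 199952 to 210812 normalized counts in control and 127729 to 133727 in knockdown libraries, with 5 of 6 lower by the test, and that of the 7 stromal markers was 153496 to 171067 and 133019 to 141197, with 5 lower. The sums of the 6 endothelial markers were 1595 to 1625 and 1115 to 1186, mostly KDR, with PECAM1, TEK and ERG near 0, while CDH5 rose from 63.4 to 174 normalized counts (log2 fold change 1.45, edgeR adjusted p = 1.4e-06) and VWF had a log2 fold change of 0.29 that did not pass. The sums of the 6 smooth muscle and pericyte markers were 2660 to 3087 and 1858 to 2055, and those of the 3 immune markers 1617 to 1823 and 846 to 907, mostly CD14, with CD68 near 0. Their part in the Notch results was not tested. In bulk libraries fewer expressing cells and less RNA per cell cannot be told apart.

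Of the 8 members that could be tested, NOTCH3 and NOTCH1 fell, HES4 rose, and NOTCH2, JAG1, JAG2, HES1 and HEY1 did not pass the test. DLL1 and HEYL were below the filter. The 3 members with an adjusted p under 0.05 (37.5% of those tested) stand beside 48.3% of all 15155 tested genes, of which 25.0% were lower and 23.3% higher. The 2 DE members (25.0% of those tested), NOTCH3 lower and HES4 higher, stand beside 11.7% of all tested genes, of which 6.43% were lower and 5.30% higher. The ranges of the groups did not overlap for 4 of the 8 tested members, against 57.3% of all tested genes. Their median log2 fold change was -0.15, with 5 negative and 3 positive, and that of all tested genes was 0.0032. The members that passed the test thus went in both directions, and with 8 genes tested the shares turn on single members.

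**Figure D1:**
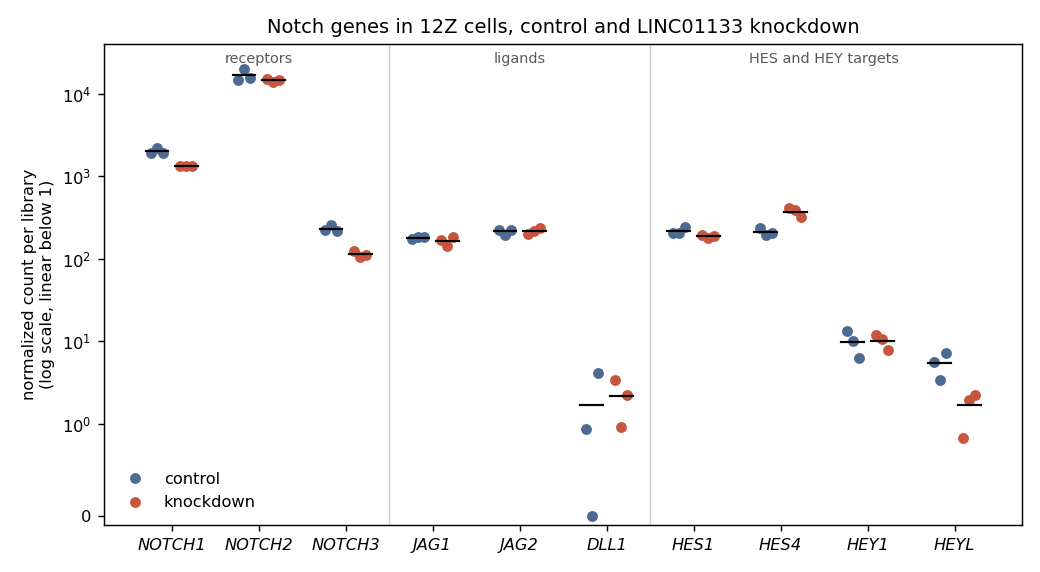
Normalized counts (vertical axis, log scale and linear below 1) of the 10 Notch genes, with a point for each of the 3 control (blue) and 3 knockdown (red) libraries and a line at each group mean. The groups are parted in NOTCH1, NOTCH3, HES1, HES4 and the sparse HEYL, and overlap in the other genes.

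Levels can be compared between genes only per length, and normalized counts per kilobase of annotated exon are used for this. In control cells NOTCH2 was by far the highest member at 993 ± 164 normalized counts per kilobase (SD, n = 3). HES4 at 190 ± 19.8, NOTCH1 at 160 ± 12.5 and HES1 at 106 ± 11.0 followed, and the lowest HES4 library stood level with the highest NOTCH1 library, at 174 in both. A lower tier held JAG2 at 33.6 ± 2.58, NOTCH3 at 24.8 ± 2.47 and JAG1 at 19.3 ± 0.61, whose ranges did not overlap. HEY1 at 1.80 ± 0.64, HEYL at 1.33 ± 0.48 and DLL1 at 0.44 ± 0.57 were close to absent, and neighbours among them overlapped. In knockdown cells HES4 stood at 334 ± 42.7 against 107 ± 0.66 for NOTCH1, and NOTCH3 at 12.1 ± 1.07 lay below JAG1 at 17.9 ± 2.15 in every library. The length takes all exons of a gene, so a gene with long, rarely used exons has its level per kilobase understated.

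NOTCH3, the receptor best known from vascular smooth muscle, fell the most of the tested members. The gene (ENSG00000074181.9) lies on the reverse strand at chr19:15159038-15200995 of GRCh38. Its normalized counts were 225, 259 and 215 in control and 125, 105 and 111 in knockdown libraries. Every knockdown library thus lay well below every control library. The means were 233 ± 23.3 and 114 ± 10.1 (SD, n = 3), which left 48.7% of the control level, and the log2 fold change was -1.03 (SE 0.11, edgeR adjusted p = 7.9e-06). Of the 6 smooth muscle and pericyte markers, MYH11 averaged 1.1 and DES 9.01 normalized counts in control cells, CSPG4 and RGS5 fell (log2 fold changes -0.72 and -0.54) and CNN1 and ACTA2 rose (1.37 and 0.48), and their part in the result for NOTCH3 was not tested.

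NOTCH1, the receptor most studied in epithelia, also fell. It (ENSG00000148400.12) lies on the reverse strand at chr9:136494433-136546048. Control libraries had 1932, 2184 and 1897 normalized counts, and knockdown libraries 1327, 1341 and 1341. The knockdown libraries lay close together and all below the controls. Means of 2005 ± 157 and 1336 ± 8.32 left 66.7% of the control level (log2 fold change -0.58, SE 0.053, edgeR adjusted p = 1.3e-06). At 1.499-fold the change stopped just short of the cutoff of 1.5-fold, so NOTCH1 was not DE, and 5 of 14 alternatives put it past the cutoff, DESeq2 among them at -0.588.

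Matches to the siRNA itself were looked for in the members and the other pathway genes described further on. The 7 bases complementary to the guide seed, AGAATGG, occur in the longest annotated 3′ UTR of 2658 of 12544 tested genes (21.2%). Among the members, NOTCH1 held 2 and HEY1 held 1, and the other 8, NOTCH3 and HES4 included, held none. No member held the 7 bases complementary to the passenger seed, which occur in 1886 of the 12544 genes. Of 57 other tested pathway genes, 11 (19.3%) held a guide match and 11 a passenger match. RBPJ held 1 guide and 2 passenger matches, and ADAM10 2 guide matches and 1 passenger match. In the 3′ UTR of the transcript annotated as canonical, ADAM17, NCSTN and SPEN held no guide match, while FBXW7 held 1 there alone. The part of the seed matches in any change was not tested. The guide sites in NOTCH1 lie in NOTCH1-216, its transcript with the longest annotated 3′ UTR, of 8542 bases. None lies in the 1638 bases of the 3′ UTR of the canonical NOTCH1-204. The match in HEY1 was also absent from the 3′ UTR of its canonical transcript, so no member held a guide match in a canonical 3′ UTR. One of the NOTCH1 sites is shown with the match in capitals, as a match in the annotation and not as a site in the canonical 3′ UTR. An annotated 3′ UTR of 8542 bases, in a gene with 12531 bases of exon, can hold bases that other NOTCH1 transcripts translate. The printed bases may thus be coding sequence in NOTCH1-204. The coding sequence of NOTCH1-204 was not searched, and which transcripts these cells use was not tested.
NOTCH1-216 site: cccctgcaAGAATGGtgccaagt

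NOTCH2 was the most abundant receptor and did not pass the test. The gene (ENSG00000134250.20) lies on the reverse strand at chr1:119911553-120100779. Its normalized counts were 14642, 19747 and 15479 in control and 14984, 13930 and 14850 in knockdown libraries. The knockdown libraries overlapped with the controls, and control library 2 stood apart from all the rest. The log2 fold change was -0.19 (SE 0.083, edgeR adjusted p = 0.079), with means of 16623 ± 2738 and 14588 ± 574 (SD, n = 3). It was -0.05 (adjusted p = 0.33) without control library 2 and -0.27 (adjusted p = 0.018) without control library 1.

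The spread of NOTCH2 among the controls was itself wide. Its coefficient of variation over the control libraries was 16.5%, against a median of 3.12% among 563 genes with a mean control count of at least 10000, where it ranked 21. In control library 2 NOTCH2 was higher by 0.39 on the log2 scale than in the other controls. Genes with a mean control count of at least 100 were taken for comparison. Among these, 1954 genes over 10000 bases long had a median shift of 0.064 and 1953 genes under 3000 bases one of -0.033. Control library 2 also differed more from the other controls over all tested genes, so standing apart was not particular to NOTCH2. The chi-square per degree of freedom between its counts and theirs was 11.8 and 12.8, against 3.73 between control libraries 1 and 3. Among knockdown libraries it was 2.21 to 3.48. Without control library 2 the log2 fold changes of NOTCH1 and NOTCH3 were -0.52 and -0.95, their smallest falls with a library left out. Only reads with a single place in the genome were counted, so reads shared with the near-identical NOTCH2NL copies are missing from NOTCH2 or from these copies. Of the copies, NOTCH2NLC had means of 26.1 and 17.6 normalized counts (adjusted p = 0.12), NOTCH2NLA 10.7 and 14.8 (adjusted p = 0.22) and NOTCH2NLR 2.42 and 2.49, and NOTCH2NLB had none in any library.

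The receptors can also be set against each other within a library, which does not depend on the scaling between libraries. NOTCH3 made up 2.27%, 1.99% and 2.08% of receptor counts per kilobase in control and 1.31%, 1.17% and 1.17% in knockdown libraries. NOTCH1 made up 13.7% ± 1.02 in control and 10.8% ± 0.43 in knockdown cells (SD, n = 3), and NOTCH2 84.2% ± 1.16 and 88.0% ± 0.38. In all 3 receptors the groups did not overlap. The shares of a library are parts of a whole, so the higher share of NOTCH2 is the counterpart of the lower shares. The counts of NOTCH2 itself did not rise, with a log2 fold change of -0.19 and overlapping groups. The endothelial receptor NOTCH4 made up at most 0.028%. With 3 libraries per group an exact permutation test cannot go below p = 0.10, so the shares are given without a test. NOTCH3 was also lower relative to NOTCH1, with ratios of counts of 0.117, 0.119 and 0.113 in control and 0.0939, 0.0782 and 0.0829 in knockdown libraries. These ratios were chosen after the values had been seen.

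**Figure D2:**
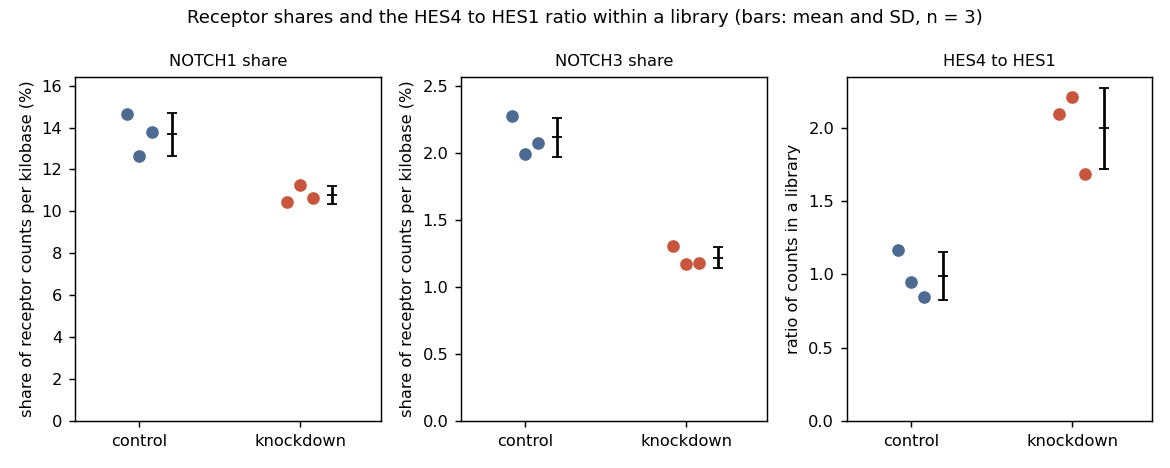
Shares of NOTCH1 and NOTCH3 in the receptor counts per kilobase (in percent) and the ratio of HES4 to HES1 counts in each library, with bars for the mean and SD of 3 libraries. In every panel the control and knockdown libraries are parted, lower for both receptors and higher for the ratio in knockdown cells.

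The Jagged ligands, which activate Notch on a touching cell, differed little between groups. JAG1 (ENSG00000101384.12, chr20:10637684-10673999, reverse strand) had 173, 182 and 183 normalized counts in control and 171, 145 and 184 in knockdown libraries. The groups overlapped, and only knockdown library 2 lay apart. The log2 fold change of JAG1 was -0.11 (SE 0.11, edgeR adjusted p = 0.42), and it was -0.02 (adjusted p = 0.92) without knockdown library 2 and -0.18 (adjusted p = 0.25) without knockdown library 3. JAG2 (ENSG00000184916.9, chr14:105140982-105168824, reverse strand) had 225, 196 and 224 normalized counts in control and 201, 219 and 236 in knockdown libraries. The groups again overlapped, and the log2 fold change was 0.02 (SE 0.099, adjusted p = 0.91). A change of JAG2 near that of NOTCH3 or HES4 would have been several standard errors in size, while a change of the size of the SE could not be seen with 3 libraries per group.

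DLL1 (ENSG00000198719.9, chr6:170282206-170306565, reverse strand), a Delta-like ligand, was barely detected, with 1, 0 and 4 raw counts in control and 4, 1 and 2 in knockdown libraries. These counts overlap and allow no statement on a difference. Within the ligand counts per kilobase JAG2 made up 57.5% ± 3.47 in control and 58.2% ± 3.16 in knockdown cells (SD, n = 3), JAG1 33.1% ± 1.22 and 30.4% ± 2.32, and DLL1 0.74% ± 0.94 and 0.98% ± 0.55. DLL3, a divergent ligand outside the set that binds Notch within the same cell, made up 8.47% ± 2.48 and 10.1% ± 0.62. All these shares overlapped between groups.

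HES4 and HES1, repressors of the basic helix-loop-helix type and classical readouts of Notch, did not move together. HES4 (ENSG00000188290.11, chr1:998962-1000172, reverse strand) had 238, 195 and 206 normalized counts in control and 408, 393 and 319 in knockdown libraries. Every knockdown library lay above every control library. The means were 213 ± 22.1 and 373 ± 47.7 (SD, n = 3), a 1.76-fold rise (log2 fold change 0.81, SE 0.11, edgeR adjusted p = 3.9e-05). HES1 (ENSG00000114315.4, chr3:194136148-194138732, forward strand) had 204, 205 and 244 normalized counts in control and 195, 178 and 189 in knockdown libraries. The groups did not overlap, but the gap between them was small, and with a log2 fold change of -0.21 (SE 0.10, edgeR adjusted p = 0.10) HES1 did not pass the test. It was -0.12 (adjusted p = 0.36) without control library 3, the highest of the 6.

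The ratio of HES4 to HES1 counts within a library, also chosen after the values had been seen, was 1.17, 0.951 and 0.847 in control and 2.09, 2.21 and 1.68 in knockdown libraries. The groups did not overlap, with means of 0.988 ± 0.164 and 2.00 ± 0.278 (SD, n = 3). The genes thus went from near equal counts to about 2 HES4 counts per HES1 count. No test was made of this ratio.

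The promoters of both genes are shown because they share a paired arrangement of the core bound by RBPJ, in capitals, read from the RefSeq table of GRCh38.p14 as 250 bases before to 50 after the annotated start. The HES1 window is chr3:194135898-194136197 on the forward strand and the HES4 window chr1:1000048-1000347 on the reverse strand, each printed 5′ to 3′ along its gene.
HES1: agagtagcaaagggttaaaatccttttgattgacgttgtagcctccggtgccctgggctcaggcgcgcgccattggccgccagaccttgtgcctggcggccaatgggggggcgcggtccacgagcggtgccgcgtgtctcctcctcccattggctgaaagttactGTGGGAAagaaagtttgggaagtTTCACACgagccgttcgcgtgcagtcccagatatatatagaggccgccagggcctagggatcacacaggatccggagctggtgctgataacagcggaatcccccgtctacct
HES4: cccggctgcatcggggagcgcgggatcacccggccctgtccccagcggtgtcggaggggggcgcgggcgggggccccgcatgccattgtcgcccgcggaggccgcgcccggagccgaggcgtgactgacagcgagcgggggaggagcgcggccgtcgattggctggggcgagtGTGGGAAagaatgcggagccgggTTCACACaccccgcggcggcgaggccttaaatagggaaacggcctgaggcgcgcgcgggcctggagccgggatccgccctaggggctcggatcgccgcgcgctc

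In both windows GTGGGAA is followed by TTCACAC after 16 bases, so that the cores face each other, starting 85 bases before the start of HES1 and 77 before that of HES4. The pattern GTGNGAA, then 15 to 17 bases, then TTCNCAC was written after the HES1 sequence had been read, and it reads the same on both strands. It was found in 4 of 35116 promoters of this length (0.0114%), those of HES1, HES4, PLPPR5-AS1 and ITIH4. A single GTGGGAA on either strand is common, with 2194 promoters (6.25%) holding it, the cores of the pairs included. Among the members found in the table, which were 8 of 10 with DLL1 and HEY1 not matched, HEYL held 1 single core 178 bases before its start on the opposite strand, and the other 5 held none. The E-box CACGTG, a site of basic helix-loop-helix proteins, was in 7.26% of promoters and in none of the 8. HES1 and HES4 thus share this arrangement in sequence, while HES4 rose and HES1 had a log2 fold change of -0.21 that missed the threshold. A match is a description of the letters and not evidence of binding in these cells.

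**Figure D3:**
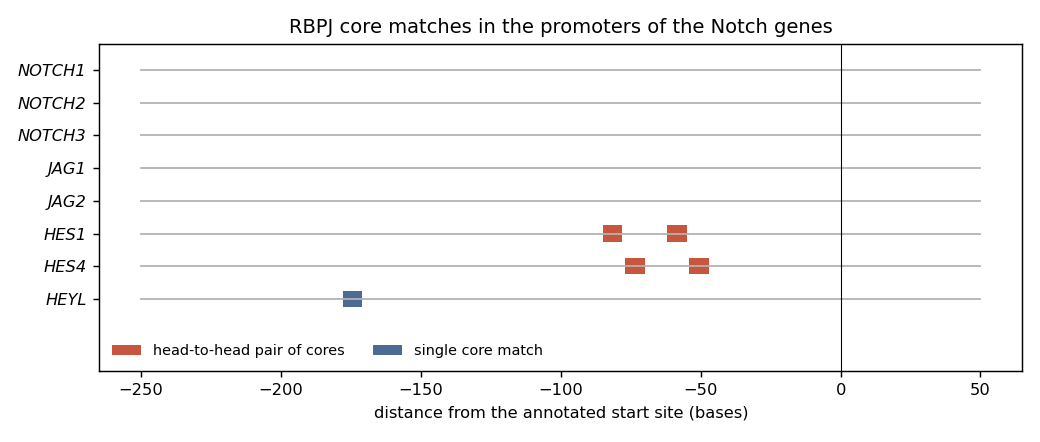
Matches to the RBPJ core in the promoter windows of the 8 members found in the table, with the distance from the annotated start in bases on the horizontal axis and a row per gene. HES1 and HES4 carry a pair of facing cores at nearly the same distance, HEYL carries a single core, and the remaining 5 windows carry none.

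HEY1 and HEYL, repressors related to HES that are prominent in the vasculature and heart, were at the edge of detection. HEY1 (ENSG00000164683.18, chr8:79762371-79767857, reverse strand) had 14, 9 and 6 raw counts in control and 14, 11 and 7 in knockdown libraries. The groups overlapped fully, and the log2 fold change was 0.05 with an SE of 0.36 (edgeR adjusted p = 0.92), too wide to speak of a difference at this depth. HEYL (ENSG00000163909.8, chr1:39623435-39639643, reverse strand) had 6, 3 and 7 raw counts in control and 1, 2 and 2 in knockdown libraries. The groups did not overlap, with 16 counts in all against 5, but HEYL lay below the filter. Tested without a filter, it had a log2 fold change of -1.68 (SE 0.78, adjusted p = 0.11).

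Other genes of the pathway were taken as 66 genes in 7 lists by role, of which 57 were tested. Of these, 30 had an adjusted p under 0.05, 13 higher and 17 lower (52.6%, against 48.3% of all tested genes), and 6 were DE (10.5%, against 11.7%). Their median log2 fold change was -0.04. The rest of the pathway thus changed at about the rate of all genes, in both directions. Of the 6 other receptors and ligands 3 were tested and 2 fell. DNER, a non-canonical ligand of neurons, fell from 29.5 to 11.0 normalized counts (log2 fold change -1.36, edgeR adjusted p = 0.0014). DLK2, a Delta-like homologue, fell from 112 to 83.4 (log2 fold change -0.42, edgeR adjusted p = 0.034), short of the fold cutoff. Of the stranded counts at DLK2, 25.5% lay on the other strand.

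Among the 9 genes of receptor cleavage, 2 rose, 3 fell and 4 did not pass. FURIN, which makes the first cut of the maturing receptor, rose from 1247 to 1631 normalized counts (log2 fold change 0.39, edgeR adjusted p = 6.2e-06), and NCSTN, a subunit of γ-secretase, from 2809 to 3451 (0.30, adjusted p = 1.7e-05). ADAM10 and ADAM17, which cut the bound receptor outside the membrane, had log2 fold changes of -0.19 and -0.16. Of the 5 glycosylation genes 3 rose and none fell, with the Fringe enzymes RFNG at 0.48 (adjusted p = 1.2e-04) and LFNG at 0.33 (adjusted p = 0.026). Of the 12 genes of trafficking and turnover 11 were tested, with 3 higher and 3 lower, and NEURL1B, a ubiquitin ligase that acts on ligands, fell from 337 to 199 (log2 fold change -0.77, adjusted p = 8.7e-05). No gene of cleavage or glycosylation was DE.

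The 20 nuclear genes held 3 of the 6 DE genes, with 3 higher and 7 lower by adjusted p and 10 that did not pass. HDAC1, a histone deacetylase, rose from 4702 to 8287 normalized counts (log2 fold change 0.82, edgeR adjusted p = 3.8e-08). TLE3 and TLE2, Groucho-type corepressors through which HES proteins act, fell from 921 to 509 (-0.86, adjusted p = 8.6e-08) and from 65.2 to 27.1 (-1.30, adjusted p = 5.4e-04). In the same family TLE4 rose (0.24, adjusted p = 0.0016), and the more abundant TLE1 and TLE5 had log2 fold changes of -0.02 and -0.03 and did not pass. RBPJ, the DNA-binding partner of every Notch receptor, fell from 3891 ± 194 to 2649 ± 56.9 normalized counts (SD, n = 3; log2 fold change -0.55, SE 0.043, adjusted p = 3.4e-07), which did not reach the fold cutoff. Of the Mastermind coactivators, MAML1 rose from 238 to 333 (0.49, adjusted p = 5.0e-04), also short of the cutoff, while MAML2 and MAML3 had log2 fold changes of -0.09 and 0.21 and did not pass. RBPJ was singled out after its values had been seen, as were the MAML genes, TLE1, TLE4, TLE5, DLK2, ADAM10, ADAM17, DLL3 and NRARP.

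Of the 9 other HES, HEY and related basic helix-loop-helix genes 4 were tested, with 1 higher, 2 lower and 1 that did not pass. BHLHE40, a related gene outside the HES and HEY families, fell from 2619 to 1857 normalized counts (log2 fold change -0.50, edgeR adjusted p = 3.3e-07). HES6, which opposes HES1, rose from 146 to 193 (0.40, adjusted p = 0.011). HES2, HES3, HES5 and HEY2 had means of at most 1.27 normalized counts, and HELT had none. Of the 5 other reported targets only CDKN1A, the cell cycle inhibitor p21, passed the test, rising from 1089 to 2071 (log2 fold change 0.93, adjusted p = 9.0e-09). NRARP, a feedback inhibitor of Notch, had means of 281 and 255 normalized counts (log2 fold change -0.15, adjusted p = 0.17).

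**Figure D4:**
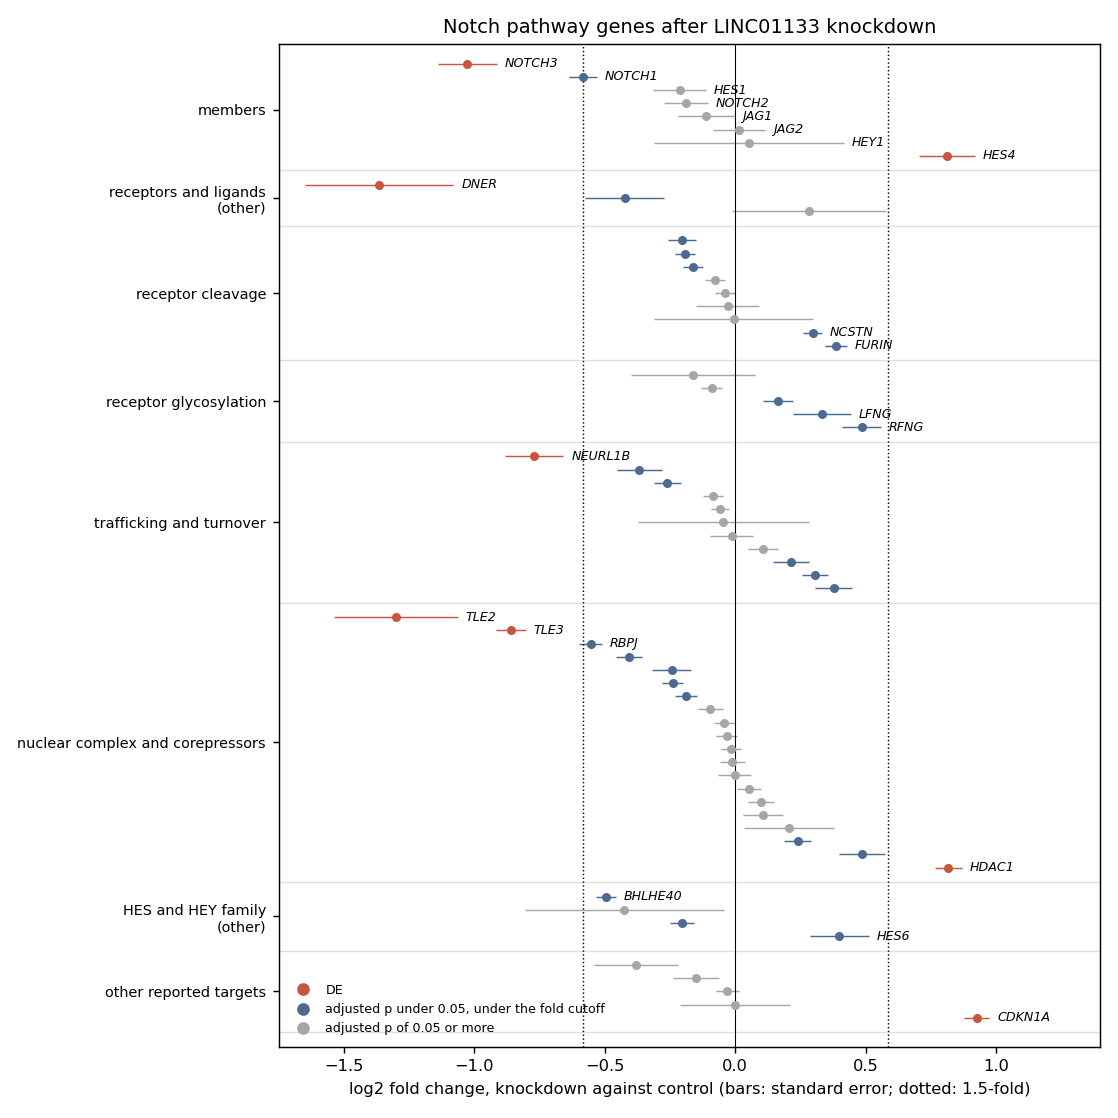
Log2 fold changes (knockdown against control, with standard errors) of the tested Notch pathway genes by role, coloured by call, with dotted lines at a change of 1.5-fold. NOTCH3 and HES4 lie outside the lines on opposite sides, NOTCH1 lies at the line, and most other pathway genes lie inside.

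The calls of the members were compared across 14 alternatives of test, scaling, filter, strand column, replicate block and left-out library. NOTCH3 was DE in 14 of 14, with log2 fold changes of -1.10 to -0.95 when a library was left out. HES4 was DE in 13 of 14, with 0.75 to 0.91 when a library was left out, and lost the call when the change was tested against 1.5-fold in place of 0 (adjusted p = 0.15). NOTCH1 kept an adjusted p under 0.05 in every alternative that tested it against 0, and lay between -0.62 and -0.52 when a library was left out.

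**Figure D5:**
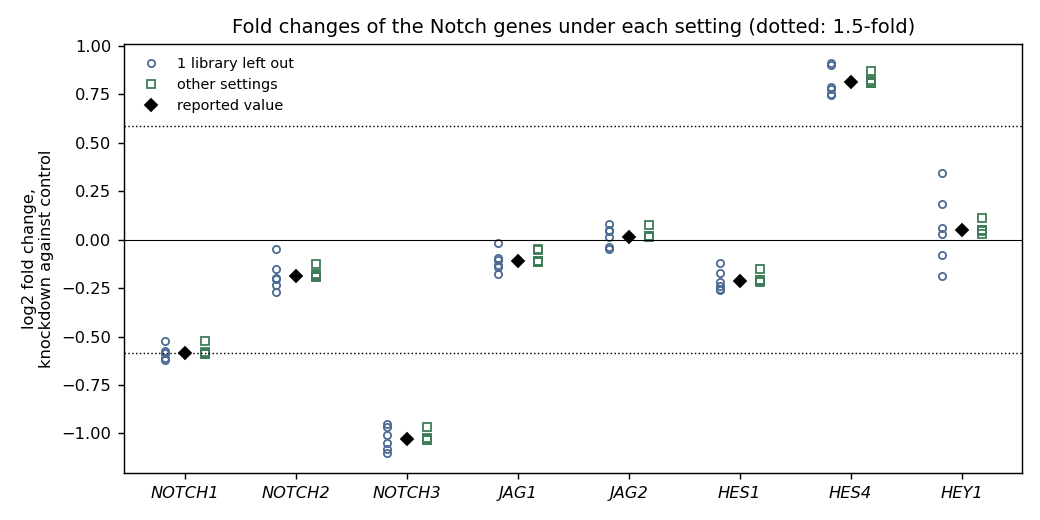
Log2 fold changes (vertical axis, knockdown against control) of the 8 tested members, with circles for fits that leave out 1 library, diamonds for the reported values, squares for the other alternatives and dotted lines at 1.5-fold. The points of NOTCH3 stay beyond the lower line and those of HES4 beyond the upper line, while NOTCH1 lies at the lower line.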

How the data were processed

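Poly-A RNA of 6 cultures (3 biological replicates per group, per the study's methods) was sequenced on 1 lane. The authors aligned the reads with STAR 2.7.6a to GRCh38.p13 with GENCODE v36 and deposited raw counts of uniquely mapping read pairs per gene, without normalization. The methods name a TruSeq kit and the labels a NEB kit. Counts on the strand opposite to that of read 1 were used, which made up 93.9% to 94.1% of stranded counts. Reads assigned to no gene (4.38% to 5.22%) or to several (3.88% to 4.23%) entered no library size. At most 3.18% of a member's counts lay on the other strand.

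Genes were filtered by filterByExpr (minimum count 10), scaled by TMM (factors 0.968 to 1.03) and tested by the two-sided quasi-likelihood test of edgeR 4.0.16 in R 4.3.3, tested beforehand on simulated data. The common biological coefficient of variation was 0.0439. Symbols, exon lengths, coordinates and UTRs came from GENCODE v44, promoters from RefSeq. Alternatives included DESeq2 1.42.0. Named were the members, LINC01133, NOTCH2 copies with counts and, per pathway list, each DE gene or otherwise the 2 largest changes with an adjusted p under 0.05. The members and lists were chosen with earlier results of these data known. The SD covers the spread of 3 libraries per group. The SE is the size of the log2 fold change over the square root of the quasi-likelihood F statistic. The dispersions in that statistic draw on all tested genes.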

Additional observations from a re-analysis of the deposited data

How the results depend on the processing

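Of 111 values of single members under the alternatives, 103 kept their direction and their side of an adjusted p of 0.05, 2 lost it (NOTCH1 and HES4, when tested against a fold change of 1.5), 2 gained it (NOTCH2) and 4 changed sign. The log2 fold changes with a library left out were -0.26 to -0.12 for HES1 and -0.18 to -0.02 for JAG1, none past the test. The sign changes were those of JAG2, from -0.048 to 0.082 on the log2 scale when a library was left out, and of HEY1, from -0.19 to 0.35, neither of which passed the test in any of these. Tested against a fold change of 1.5, 1 member (NOTCH3) and 578 of all genes were DE, in place of 2 and 1778. NOTCH1 was also DE with DESeq2 (-0.588), median-of-ratios scaling (-0.585), unstranded counts (-0.587) and without control library 1 (-0.610) or 3 (-0.620), which made 3 DE members. NOTCH2 passed an adjusted p of 0.05 without a filter (1.7e-05) and without control library 1. The difference in the share of NOTCH3 was -0.896 percentage points when taken from counts per kilobase and -0.535 percentage points from counts not divided by length. The causes of these changes were not tested.

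With the replicate number as a block (replicate block), 3 members had an adjusted p under 0.05, 2 members and 1747 of all genes were DE, and no call of a member changed. The numbers did not pair the libraries, with correlations of same-numbered deviations of -0.015, 0.005 and 0.057. Depth limits DLL1, HEYL and HEY1, for which only large changes could be seen.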
